A study of Mus musculus with 24 samples.

Results

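*Cdk15* and *1110002J07Rik* were followed through a retinoic acid (RA) time course in mouse embryonic stem cells (ESCs). These are 2 of the 26264 genes in the count table, and they were chosen by the size of their rise with RA in both engineered lines, as genes of which little is known in ESCs. That rise is therefore described here without a test. The effect of the degron ligand and the difference between the lines before RA were not criteria of that choice, and these were tested. The levels before RA did enter the rises, and earlier results of these data were known when the genes were chosen.

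PolyA RNA was sequenced from BAP1-AID ESCs and from UTX-AID ESCs, which derive from E14 cells and carry an HA-AID degron tag on the deubiquitinase BAP1 or the histone demethylase UTX. Both lines stably overexpress TIR1, the adaptor through which the auxin indole-3-acetic acid (IAA) directs a tagged protein to the proteasome. Each line was kept without IAA (−IAA) or pretreated with IAA (+IAA). Each arm was sampled at 0, 3, and 6 h of RA, with 2 libraries in each of the 12 groups. RA was given in medium without LIF, so the effects of RA and of LIF withdrawal cannot be told apart. Each protein was tagged in its own line, so line and tagged protein cannot be told apart either. None of the libraries came from untagged cells given IAA, so effects of IAA itself and of losing the tagged protein cannot be told apart. Nothing states that the 2 libraries of a group came from separate cultures, and p-values then measure only the spread between these libraries, which may be technical. In bulk RNA, more cells that carry a transcript and more transcript per cell cannot be told apart.

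The 24 libraries held total estimated counts of 42018795 to 54034789. The 8 pluripotency markers summed to 4012 to 4893 CPM in all 24 libraries, and all 8 had a median above 1 CPM in each line at each time. The 4 neural markers summed to 49.7 to 98.8 CPM, the 4 mesoderm markers to 4.30 to 15.7 CPM, the 5 endoderm markers to at most 6.94 CPM, and the 4 fibroblast markers to at most 5.85 CPM. In BAP1-AID ESCs, from 0 h to 6 h, the endoderm sum went from 2.0 to 3.31 CPM up to 5.77 to 6.94 CPM. The mesoderm sum there went from 11.6 to 15.7 CPM down to 6.39 to 8.74 CPM, and the fibroblast sum from 2.82 to 5.85 CPM down to 1.39 to 2.47 CPM, each without overlap. Of the 5 endoderm markers, *Gata6* spanned 0.173 to 4.98 CPM over all BAP1-AID libraries, and no other exceeded 1.95 CPM. At 3 h the log2 fold change over 0 h was 2.96 without and 3.21 with IAA for *Gata6*, and -0.42 and -1.11 for *Gata4*. The endoderm sum thus does not describe its 5 genes alike. *Eomes* spanned 5.95 to 15.4 CPM over all BAP1-AID libraries, and no other mesoderm marker exceeded 0.947 CPM. *Thy1* spanned 1.26 to 5.41 CPM there, and no other fibroblast marker exceeded 0.478 CPM. At 3 h the log2 fold change there was -0.34 without and with IAA for *Eomes*, and 2.32 and 0.56 for *T*. The mesoderm and fibroblast sums thus mostly follow *Eomes* and *Thy1*. The part of these sums in the values below was not tested. *Bap1* mRNA stayed between 93.3 and 105 CPM in BAP1-AID ESCs and *Kdm6a*, which encodes UTX, between 93.5 and 125 CPM in UTX-AID ESCs. IAA acts on the protein, so these levels do not check the depletion.

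Cdk15 is a member of the TAIRE group of cyclin-dependent kinases, a group named after a motif in the helix that faces the cyclin. Its closest relatives are Cdk14 and Cdk16 to Cdk18, and of these Cdk14 and Cdk16 are activated by cyclin Y. *1110002J07Rik* is a long noncoding RNA that still goes by its cDNA clone name. RA enters the nucleus and binds RAR and RXR receptor pairs, which sit on direct repeats of a short half-site in DNA and switch on targets such as *Hoxb1* and *Cyp26a1*. *Hoxb1* encodes a patterning factor of the early hindbrain, and *Cyp26a1* encodes an enzyme that degrades RA.

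*Cdk15* (ENSMUSG00000026023.18) lies on chromosome 1 at chr1:59295874-59392152 on the plus strand of mm39 (GRCm39) and has 5 annotated transcripts, 3 of them with 14 exons. *1110002J07Rik* (ENSMUSG00000097134.4) lies on chromosome 10 at chr10:66747961-66756085 on the minus strand and has 5 annotated transcripts of 2 to 4 exons. The noncoding genes *Gm67111* and *Gm26576* overlap *1110002J07Rik* on the opposite strand over 291 and 2330 bases of its span, and they were not analysed here. Whether counting used strand is not stated in the sources used here, so reads from these genes and from *1110002J07Rik* cannot be told apart.

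The 250 bases before the annotated start of each gene are shown because both genes rose with RA. Both genes have further annotated starts within their spans, and counts per gene do not show which start was used. The sequences are printed 5′ to 3′ on the strand of the gene, from GRCm39 at chr1:59295624-59295873 for *Cdk15* and at chr10:66756086-66756335 for *1110002J07Rik*. Neither stretch holds a copy of the half-site AGGTCA, its variant AGTTCA, its variant GGGTCA, or its variant GGTTCA on either strand, so nothing is in capitals. A half-site of this kind is present in the same stretch of 40.0% of 23897 genes.
Cdk15: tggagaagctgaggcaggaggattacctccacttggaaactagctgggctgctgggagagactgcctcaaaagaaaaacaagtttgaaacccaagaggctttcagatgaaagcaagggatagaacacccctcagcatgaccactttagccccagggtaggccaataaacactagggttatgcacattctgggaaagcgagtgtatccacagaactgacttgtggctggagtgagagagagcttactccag
1110002J07Rik: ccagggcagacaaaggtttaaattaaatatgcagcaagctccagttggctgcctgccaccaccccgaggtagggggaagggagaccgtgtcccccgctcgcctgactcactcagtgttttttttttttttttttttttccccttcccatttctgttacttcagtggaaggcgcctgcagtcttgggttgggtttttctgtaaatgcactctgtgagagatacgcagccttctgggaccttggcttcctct

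The GC content was 49.6% before *Cdk15* and 50.4% before *1110002J07Rik*, with 1 and 6 CpG dinucleotides. No match in these windows says only that these letters are not there.

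Direct repeats of the same half-sites with a spacer of 1 (DR1), 2 (DR2), or 5 bases (DR5) were then searched within 10 kb of each start on both strands. The 3 repeats found are shown because this is the arrangement to which RAR and RXR bind, and the capitals mark the half-sites.
Cdk15 DR2: AGGTCAggAGTTCA
1110002J07Rik DR1: AGGTCAgAGGTCA
1110002J07Rik DR2: AGGTCAtgAGTTCA

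The *Cdk15* repeat is at chr1:59286274-59286287, outside the gene and centred 9594 bases upstream of its start, on the minus strand. Both *1110002J07Rik* repeats are on the minus strand, which is the strand of the gene, and in its introns. The DR1 is at chr10:66750848-66750860, 5231 bases into the gene, and the DR2 at chr10:66752342-66752355, 3736 bases into it. Neither gene had a DR5 in this window. Among 23897 genes, 15.1% have a DR1, 23.8% a DR2, and 7.43% a DR5 within 10 kb of their start, so such matches are common, and a match is not evidence of binding.

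*Cdk15* was undetected before RA and present in every library after it. Its count was 0 in all 8 libraries at 0 h, 15 to 49 in the 8 libraries at 3 h, and 23 to 107 in the 8 libraries at 6 h. After TMM scaling the level was 0.291 to 1.01 CPM at 3 h and 0.468 to 2.15 CPM at 6 h, so the ranges of the time points overlapped over all arms. A count of 0 was taken to allow a level of up to 3 counts. This limit averaged 0.0585 to 0.0621 CPM over the 2 libraries of each 0 h group. It covers counting error at most. The counts derive from coverage and a count is not a single read, so the limit is a convention.

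In BAP1-AID −IAA ESCs, *Cdk15* was at 0.601 and 0.406 CPM at 3 h and at 2.15 and 1.38 CPM at 6 h. With IAA it was at 0.312 and 1.01 CPM at 3 h and at 0.883 and 0.468 CPM at 6 h. The pair of +IAA libraries at 3 h spanned both −IAA libraries, while at 6 h both +IAA libraries were lower than both −IAA libraries. In UTX-AID −IAA ESCs, it was at 0.602 and 0.822 CPM at 3 h and at 1.04 and 0.996 CPM at 6 h. With IAA it was at 0.291 and 0.357 CPM at 3 h and at 1.57 and 1.09 CPM at 6 h. Here both +IAA libraries were lower than the −IAA libraries at 3 h and higher at 6 h.

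Against the limit set by 3 counts per library at 0 h, *Cdk15* at 6 h was at least 30.2-fold higher in BAP1-AID −IAA ESCs and at least 11.2-fold higher with IAA. In UTX-AID ESCs it was at least 16.4-fold higher without IAA and at least 22.7-fold higher with IAA. At 3 h the bounds were at least 8.61-fold without IAA and at least 11-fold with IAA for BAP1-AID, and at least 11.5-fold without IAA and at least 5.51-fold with IAA for UTX-AID. The 3 h bound in BAP1-AID +IAA ESCs was 5.19-fold without the second and 16.9-fold without the first library of that group. With 1 library left out, the 6 h bounds fell to as low as 23.7-fold without and 7.78-fold with IAA in BAP1-AID ESCs. In UTX-AID ESCs they fell to 16.0-fold without and 18.6-fold with IAA. These are bounds because no transcript was counted at 0 h. They hold only as far as the limit of 3 counts does, and they leave out the spread of the RA libraries. Their order between groups says nothing of the true folds.

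Few genes shared the pattern of *Cdk15*, which belongs to the rise that chose it. A count of 0 in all 8 libraries at 0 h was found for 6577 genes. Of these, 5222 were at 0 in all 24 libraries and could not show the pattern. Among the remaining genes, 5, including *Cdk15*, had counts in all 16 libraries given RA. The other four, named after their values were seen, were *Cyp26c1*, which encodes a further RA-degrading enzyme, the homeobox gene *Hoxb6*, the antisense transcript *Hoxb3os*, and *Serpinf2*, which encodes a plasmin inhibitor. At 6 h they averaged 2.32 CPM for *Cyp26c1*, 2.70 for *Hoxb6*, 0.494 for *Hoxb3os*, and 0.838 for *Serpinf2*, against 1.2 for *Cdk15*.

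*1110002J07Rik* was expressed before RA and rose in each arm of both lines. Over the 8 libraries of a time point its count was 49 to 206 at 0 h, 222 to 591 at 3 h, and 344 to 691 at 6 h. The level was 0.966 to 3.91 CPM at 0 h, with a median of 1.66, and 4.60 to 12.1 CPM at 3 h, with a median of 6.14. At 6 h it was 7.0 to 13.5 CPM, with a median of 10.1. No library at 0 h reached the lowest library at 3 h.

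In BAP1-AID −IAA ESCs, *1110002J07Rik* was at 1.33 and 0.966 CPM at 0 h, 4.60 and 4.85 at 3 h, and 8.78 and 8.99 at 6 h. With IAA it was at 1.01 and 1.05 CPM at 0 h, 5.49 and 5.94 at 3 h, and 7.13 and 7.0 at 6 h. The arms overlapped at 0 h, the +IAA libraries were the higher ones at 3 h, and the −IAA libraries were the higher ones at 6 h.

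In UTX-AID −IAA ESCs, it was at 2.65 and 1.99 CPM at 0 h, 11.9 and 12.1 at 3 h, and 12.7 and 13.5 at 6 h. With IAA it was at 3.91 and 3.09 CPM at 0 h, 8.94 and 6.34 at 3 h, and 11.7 and 11.3 at 6 h. Here the +IAA libraries were the higher ones at 0 h and the lower ones at 3 h and at 6 h.

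**Figure D1:**
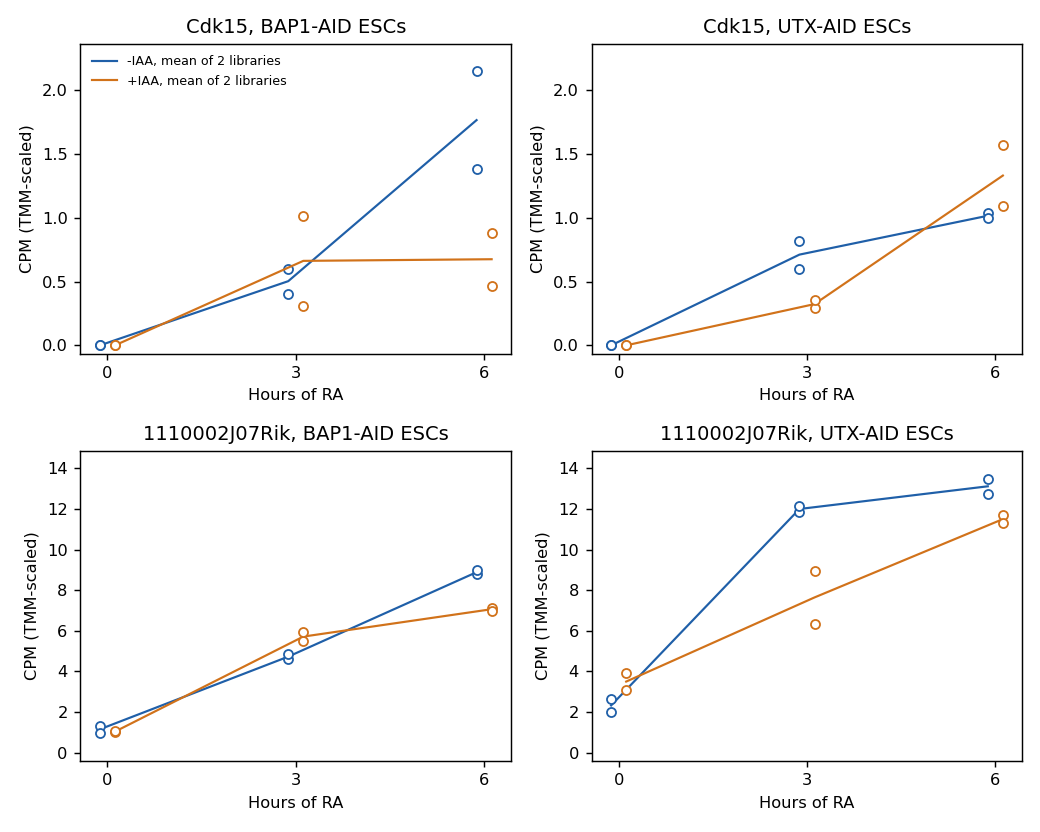
Level of each gene in CPM (y axis) by hours of RA (x axis) in each line, with an open circle for each library and a line through the means of 2 libraries, −IAA in blue and +IAA in orange. *Cdk15* is at 0 in all libraries at 0 h and reaches at most 2.15 CPM, and *1110002J07Rik* starts between 0.966 and 3.91 CPM and reaches at most 13.5 CPM.

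The fitted log2 fold changes of *1110002J07Rik* over 0 h in BAP1-AID ESCs were 2.06 at 3 h and 2.98 at 6 h without IAA, and 2.50 and 2.79 with IAA. In UTX-AID ESCs they were 2.38 and 2.51 without IAA, and 1.15 and 1.74 with IAA. As ratios of mean CPM, the 6 h level was 7.75 times the 0 h level in BAP1-AID −IAA ESCs and 3.29 times in UTX-AID +IAA ESCs, the highest and the lowest of the 4 arms at 6 h. Ordered by fitted log2 fold change at 6 h, *1110002J07Rik* stood at place 315 of 15695 genes in BAP1-AID −IAA ESCs and at place 310 of 16268 in UTX-AID −IAA ESCs. With IAA it stood at place 363 in BAP1-AID and at place 507 in UTX-AID ESCs, so many genes had a higher fold. A place for *Cdk15* depends on the prior count used for its zeros and is not given.

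The order of the group means put *1110002J07Rik* highest in UTX-AID −IAA ESCs at 6 h (13.1 CPM ± 0.536, SD, n = 2), followed by the same cells at 3 h (12 ± 0.201) and by UTX-AID +IAA ESCs at 6 h (11.5 ± 0.283). Each of these groups had both libraries above both libraries of the next. BAP1-AID −IAA at 6 h (8.89 ± 0.151), UTX-AID +IAA at 3 h (7.64 ± 1.84), and BAP1-AID +IAA at 6 h (7.06 ± 0.0904) came next and overlapped from one to the next. For *Cdk15* the highest mean was in BAP1-AID −IAA ESCs at 6 h (1.77 ± 0.541), which overlapped with UTX-AID +IAA at 6 h (1.33 ± 0.338). The means from the fourth to the seventh place were 0.712, 0.676, 0.663, and 0.503 CPM, and these groups overlapped from one to the next. The seventh, BAP1-AID −IAA at 3 h, had both libraries above those of the eighth, UTX-AID +IAA at 3 h (0.324 ± 0.0466).

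Per kilobase of annotated exon, *Cdk15* was the scarcer transcript in both lines. At 6 h without IAA, *Cdk15* was at 0.644 ± 0.197 CPM per kb in BAP1-AID and 0.371 ± 0.0107 in UTX-AID ESCs (SD, n = 2). On the same scale *1110002J07Rik* was at 2.98 ± 0.0505 and 4.39 ± 0.180, in the same order of lines. The reference RA target *Hoxb1* was at 5.97 and 3.35 CPM per kb. *1110002J07Rik* was thus below *Hoxb1* in BAP1-AID ESCs and above it in UTX-AID ESCs by level per kb.

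How much of the 6 h rise was already present at 3 h differed between arms for both genes. For *1110002J07Rik* the share was 46.2% in BAP1-AID −IAA and 77.6% in BAP1-AID +IAA ESCs, and it was 89.6% in UTX-AID −IAA and 51.8% in UTX-AID +IAA ESCs. IAA thus went with a larger share in one line and a smaller share in the other. For *Cdk15* the share in BAP1-AID ESCs was 28.5% without IAA and 98.1% with IAA, and in UTX-AID ESCs the −IAA and +IAA shares were 70% and 24.3%. The 98.1% rests on +IAA libraries at 3 h that held 0.312 and 1.01 CPM.

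The reference targets had narrower ranges of the same share over the 4 arms. It was 41.1% to 62.6% for *Hoxb1* and 53.9% to 62.1% for *Cyp26a1*. These shares describe the RA response that chose the members and carry no test. They are also ratios of means of 2 libraries.

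**Figure D2:**
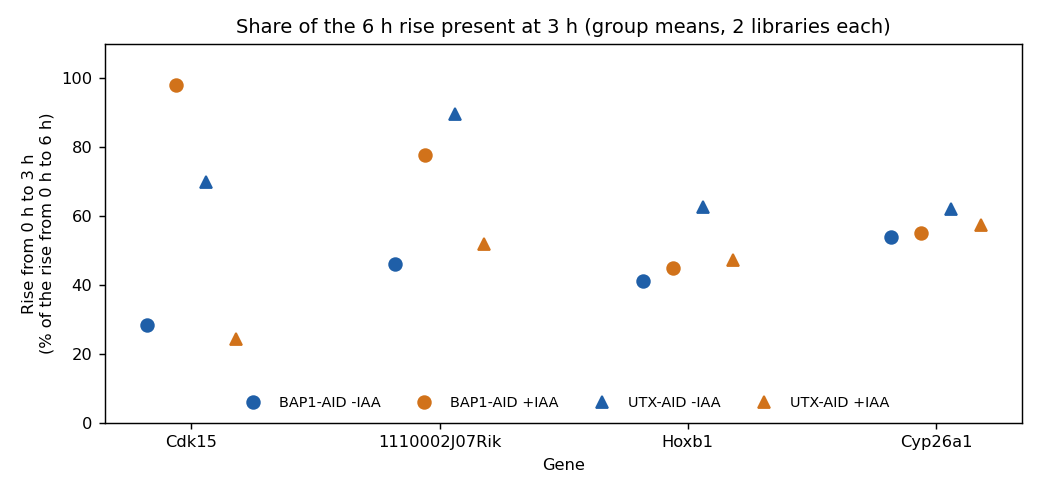
Rise from 0 h to 3 h as a percentage of the rise from 0 h to 6 h (y axis) for each gene (x axis), from group means of 2 libraries, with circles for BAP1-AID, triangles for UTX-AID, blue for −IAA, and orange for +IAA. The points of *Cdk15* range from 24.3% to 98.1% and those of *1110002J07Rik* from 46.2% to 89.6%, while *Cyp26a1* stays between 53.9% and 62.1%.

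Whether loss of BAP1 or UTX alters these genes was the question of the IAA arms. A gene was called when the adjusted p-value of edgeR's quasi-likelihood test was below 0.05 and the absolute log2 fold change was above 1, and adjusted p-values below are of this test. Neither gene was called for IAA at any time in either line. The share of all tested genes called for IAA in BAP1-AID ESCs at 0, 3, and 6 h was 1.15%, 0.892%, and 1.61%. In UTX-AID ESCs it was 0.0184%, 0.0430%, and 0.0123%.

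In BAP1-AID ESCs the log2 fold change of *1110002J07Rik* with IAA was -0.17 at 0 h (SE 0.194, adjusted p = 0.609), 0.27 at 3 h (SE 0.159, adjusted p = 0.303), and -0.36 at 6 h (SE 0.155, adjusted p = 0.171). The libraries of the arms did not overlap at 3 h and 6 h, yet the differences were small beside the rise with RA. At 0 h the sign turned when the first −IAA library was left out, to 0.066.

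In UTX-AID ESCs the same log2 fold change was 0.59 at 0 h (SE 0.204, unadjusted p = 0.0116, adjusted p = 0.441). At 3 h it was -0.65 (SE 0.182, unadjusted p = 0.00290, adjusted p = 0.200), and at 6 h -0.18 (SE 0.180, adjusted p = 0.943). The 3 h value ranged from -0.92 to -0.42 when single libraries were left out, being nearest to 0 without the second +IAA library at 3 h, the lower of the pair.

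For *Cdk15* no fold with IAA exists at 0 h, where all counts were 0. In BAP1-AID ESCs the log2 fold change with IAA was 0.39 at 3 h (SE 0.693, adjusted p = 0.775) and -1.41 at 6 h (SE 0.679, adjusted p = 0.230). In UTX-AID ESCs it was -1.13 at 3 h (SE 0.625, adjusted p = 0.621) and 0.40 at 6 h (SE 0.590, adjusted p = 0.977). Its standard errors were more than 3 times those of *1110002J07Rik* in the same comparisons, so changes of about 2-fold in *Cdk15* were not resolved with these libraries. The 3 h value in BAP1-AID ESCs became -0.69 without the second +IAA library.

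**Figure D3:**
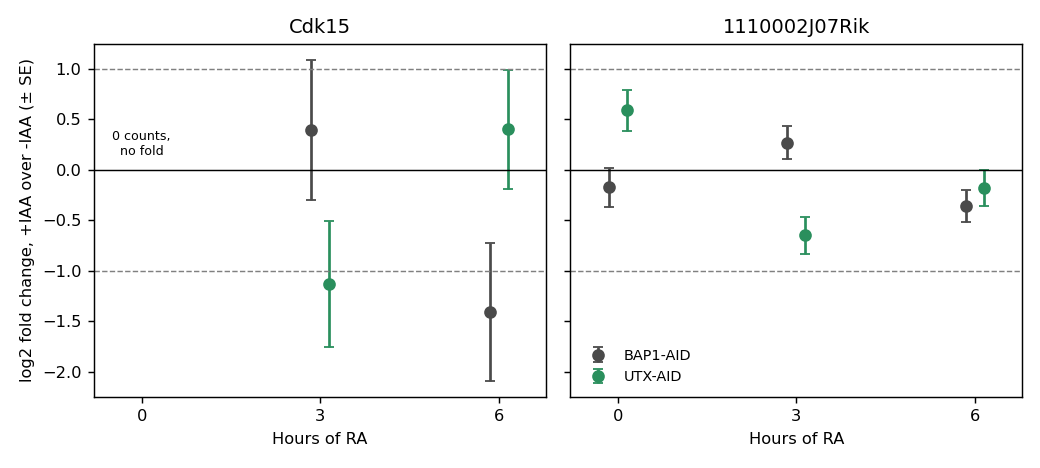
Log2 fold change of +IAA over −IAA (y axis, bars ± SE of the fit, 2 libraries in each arm) by hours of RA (x axis), BAP1-AID in grey and UTX-AID in green, with dashed lines at the absolute log2 fold change of 1 required for a call. Values of *Cdk15* lie between -1.41 and 0.40 with wide bars, and those of *1110002J07Rik* between -0.65 and 0.59.

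Directly comparing the RA response with and without IAA gave no call for *1110002J07Rik*, and *Cdk15* could not be called. For *1110002J07Rik* in UTX-AID ESCs, the response with IAA minus that without was -1.23 on the log2 scale at 3 h (SE 0.274, unadjusted p = 0.000415, adjusted p = 0.916) and -0.77 at 6 h (SE 0.272, unadjusted p = 0.0129, adjusted p = 1.00). The gene started higher and stood lower at 3 h in both +IAA libraries, and both shifts enter the 3 h value. In BAP1-AID ESCs the difference in response was 0.44 at 3 h (SE 0.251, adjusted p = 0.802) and -0.19 at 6 h (SE 0.249, adjusted p = 0.875). The 6 h value turned to 0.016 without the second −IAA library at 0 h. For *Cdk15* the size of this difference is not determined, because each response starts from 0 counts. No call was possible, and its adjusted p-values of 1.00 say nothing of the effect of IAA.

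Few genes passed this comparison. In BAP1-AID ESCs edgeR called 0% of genes at 3 h, where 1176 had an unadjusted p-value below 0.05 and DESeq2 called 6, and 0.0255% at 6 h. In UTX-AID ESCs it called 0.0123% at 3 h and 0% at 6 h, where 558 had an unadjusted p-value below 0.05 and DESeq2 called 1.

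The IAA effects of the lines were compared with each other after their values had been seen. At 3 h, the effect on *1110002J07Rik* in UTX-AID minus that in BAP1-AID ESCs was -0.92 on the log2 scale (SE 0.250, adjusted p = 0.0269), which met the p-value criterion but not the fold criterion. At this time the +IAA libraries were above the −IAA libraries in BAP1-AID and below them in UTX-AID ESCs, without overlap. At 6 h the difference was 0.14 (SE 0.244, adjusted p = 0.850). The 3 h difference was -0.70 (adjusted p = 0.142) without the second UTX-AID +IAA library and -1.20 (adjusted p = 0.0192) without the first, and its adjusted p-value also exceeded 0.05 when any one of 5 other libraries of that time was left out. For *Cdk15* the difference was -1.53 at 3 h (SE 0.954, adjusted p = 0.372) and 1.77 at 6 h (SE 0.920, adjusted p = 0.316). Of all genes tested, 1.12% were called at 3 h and 2.12% at 6 h.

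Before RA, *1110002J07Rik* was higher in UTX-AID than in BAP1-AID ESCs without IAA. The means were 2.32 ± 0.463 and 1.15 ± 0.256 CPM (SD, n = 2), and the log2 fold change was 1.01 (SE 0.209, adjusted p = 0.000254). It was called, narrowly in fold, as were 20.9% of all genes in this comparison. The call was lost, with a log2 fold change below 1, in 10 of the 24 fits that left out 1 library and in the 2 fits with a GC and length correction. The value fell to 0.77 without the first UTX-AID library at 0 h, to 0.80 without the second BAP1-AID library, and to 0.94 after correction for GC content and length, and the adjusted p-value was at most 0.0132 over all these settings. *Cdk15* was at 0 in both lines at this time.

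The rise with RA in both lines chose these genes, so its difference between the lines is given as a description with no test. Without IAA, the response of *1110002J07Rik* in UTX-AID minus that in BAP1-AID ESCs was 0.33 on the log2 scale at 3 h (SE 0.275) and -0.45 at 6 h (SE 0.270). For *Cdk15* the size is again not determined.

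Among the kinase relatives of *Cdk15* and their activators, *Cdk18* was called higher with RA in BAP1-AID ESCs and no other was called higher in any arm. Of 9 such genes, all 9 were tested, and their RA response at 6 h was called for 1 in BAP1-AID −IAA, 1 in BAP1-AID +IAA, 1 in UTX-AID −IAA, and 0 in UTX-AID +IAA ESCs. The last count is by edgeR, with 2 genes at an unadjusted p-value below 0.05 and 0 called by DESeq2. The share of all genes called in these comparisons was 4.10%, 4.51%, 1.91%, and 2.0%. The median log2 fold change of the 9 genes was 0.03, -0.17, -0.05, and -0.08, beside 0.02, 0.00, -0.00, and 0.00 over all genes tested.

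The gene called in BAP1-AID ESCs was *Cdk18*, which encodes a TAIRE kinase. Without IAA it was at 4.39 and 3.90 CPM at 0 h and at 11 and 13 at 6 h. Its log2 fold change was 1.56 (SE 0.154, adjusted p = 2.08e-05), and with IAA it was 1.67 (SE 0.159, adjusted p = 1.35e-05). In UTX-AID −IAA ESCs it was at 7.40 and 6.02 CPM at 0 h and at 9.10 and 9.10 at 6 h, with a log2 fold change of 0.45 (SE 0.165, adjusted p = 0.143). With IAA its log2 fold change in UTX-AID ESCs was 0.63 (SE 0.167, adjusted p = 0.0342), past the p-value criterion and below the fold criterion. *Cdk18* was picked for a comparison of the lines by its call in these same BAP1-AID libraries. The p-values of that comparison are therefore not independent of the pick. Without IAA, the response of *Cdk18* in UTX-AID minus that in BAP1-AID ESCs was -1.09 (SE 0.228, adjusted p = 0.0241) at 6 h and was called, as were 0.226% of all genes tested. At 3 h this difference was -1.05 (SE 0.229, adjusted p = 0.0525) and was not called, with 0.0833% of all genes called. The adjusted p-value of the 6 h difference was 0.0730 to 0.182 when any one of 6 of the 8 libraries compared was left out, which ends the call.

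The gene called in UTX-AID −IAA ESCs was *Cdk5r2*, which encodes an activator of Cdk5 known from neurons. It fell from 2.77 and 3.54 CPM at 0 h to 0.971 and 1.02 at 6 h, a log2 fold change of -1.65 (SE 0.386, adjusted p = 0.0145). With IAA the log2 fold change was -0.55 (SE 0.372, adjusted p = 0.533). The call without IAA was lost, at adjusted p-values of 0.0830 to 0.0865, without the second library at 0 h or either library at 6 h. In BAP1-AID ESCs its log2 fold change was -0.94 without IAA (SE 0.102, adjusted p = 4.75e-05), just short of the fold criterion.

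*Cdk14*, which encodes the other kinase of the PFTAIRE subgroup, was low, at 0.0380 CPM per kb in BAP1-AID and 0.0123 in UTX-AID −IAA ESCs at 6 h. By level per kb, *Cdk16* was the most abundant of the TAIRE kinases at that time, at 14.5 and 11.3, and *Ccny*, which encodes cyclin Y, was at 10.8 and 8.79. *Cdk15* at 6 h thus stood above *Cdk14* and below *Cdk5*, *Cdk16*, *Cdk17*, and *Cdk18* in both lines.

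Of the 19 other cyclin-dependent kinases and related kinases in the table, 18 were tested and edgeR and DESeq2 each called 0 at 6 h in each of the 4 arms, with 5 to 6 at an unadjusted p-value below 0.05. The share of all genes called in these arms, 1.91% to 4.51%, corresponds to fewer than 1 gene in a list of this size. *Cdk6*, a G1 kinase, had log2 fold changes of -0.68 and -0.90 in BAP1-AID ESCs without and with IAA, and of -0.60 and -0.62 in UTX-AID ESCs. *Cdk1* and *Cdk2*, which drive mitosis and S phase, stayed between -0.27 and 0.37 in the 4 arms.

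**Figure D4:**
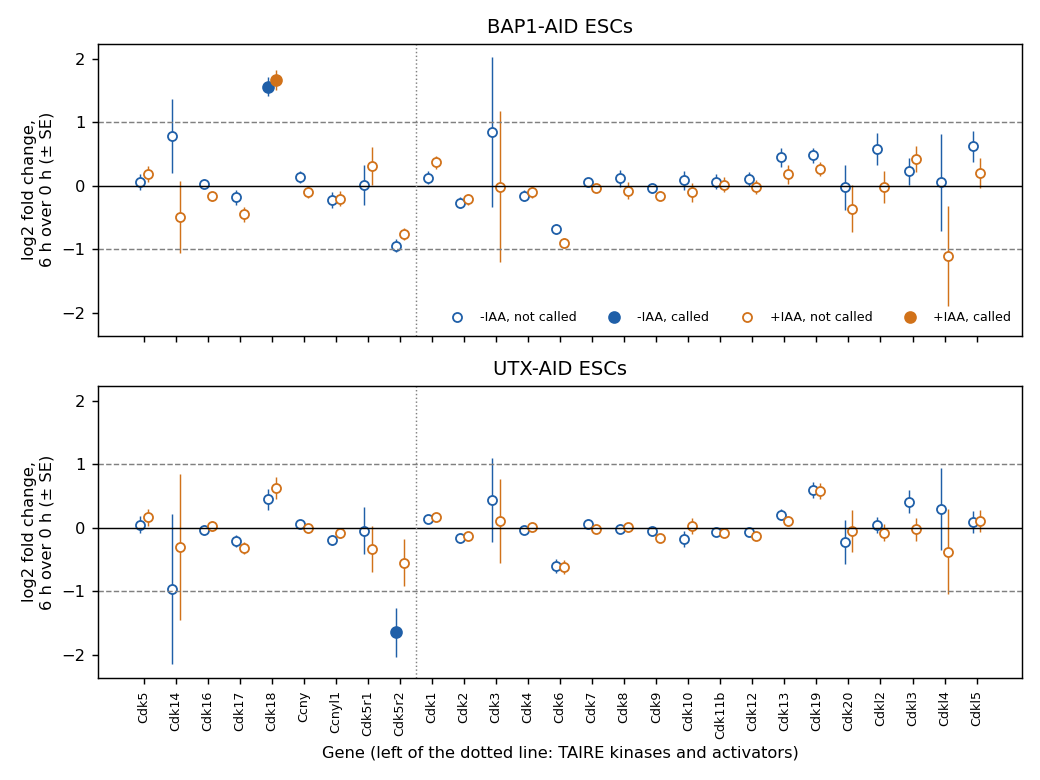
Log2 fold change of 6 h over 0 h of RA (y axis, bars ± SE of the fit) for each tested kinase or activator (x axis), BAP1-AID above and UTX-AID below, −IAA in blue and +IAA in orange, with filled circles for called genes and dashed lines at an absolute log2 fold change of 1. *Cdk18* is called in both arms of BAP1-AID ESCs and *Cdk5r2* in UTX-AID −IAA ESCs, and *Cdk15* is left out because its fold has only a lower bound.

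Among genes that start within 500 kb of *Cdk15*, *Casp8* was called higher at 6 h in BAP1-AID ESCs. Of 14 such genes in the table, 10 passed the low count filter for BAP1-AID libraries and 12 for UTX-AID libraries. At 6 h edgeR called 1 gene in each arm of BAP1-AID ESCs and 0 in each arm of UTX-AID ESCs, where DESeq2 also called 0, and 2 genes without IAA and 1 with IAA had an unadjusted p-value below 0.05. Their median log2 fold change was 0.23 in BAP1-AID −IAA, 0.20 in BAP1-AID +IAA, 0.13 in UTX-AID −IAA, and 0.05 in UTX-AID +IAA ESCs, beside 0.02, 0.00, -0.00, and 0.00 over all genes tested. Of all genes tested, 4.10%, 4.51%, 1.91%, and 2.0% were called in the same 4 arms, so 1 or 0 calls among 10 to 12 genes is near that background.

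The called neighbour was *Casp8*, which encodes the initiator caspase of the death receptor pathway and starts 461 kb upstream of *Cdk15*. It was at 0.808 and 0.809 CPM at 0 h and at 1.81 and 3.22 at 6 h in BAP1-AID −IAA ESCs, a log2 fold change of 1.66 (SE 0.372, adjusted p = 0.00908). With IAA the log2 fold change was 1.95 (SE 0.382, adjusted p = 0.00379). The call without IAA was lost without the first library at 0 h (adjusted p = 0.0607) or the second at 6 h (adjusted p = 0.124). *Fzd7*, a Wnt receptor gene on the other side of *Cdk15*, had log2 fold changes between -0.12 and 0.04.

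Around *1110002J07Rik*, 5 genes of the table start within 500 kb and 4 were tested. EdgeR and DESeq2 each called 0 at 6 h in each arm, with 0 to 1 at an unadjusted p-value below 0.05, and with 1.91% to 4.51% of all genes called a count of 0 among 4 genes is no result about them. *Jmjd1c*, which encodes a JmjC domain protein and starts 176 kb away, had a log2 fold change of 0.33 without IAA (adjusted p = 0.0258) and 0.61 with IAA (adjusted p = 0.000465) in BAP1-AID ESCs, below the fold criterion. In UTX-AID ESCs it was 0.12 and 0.00.

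**Figure D5:**
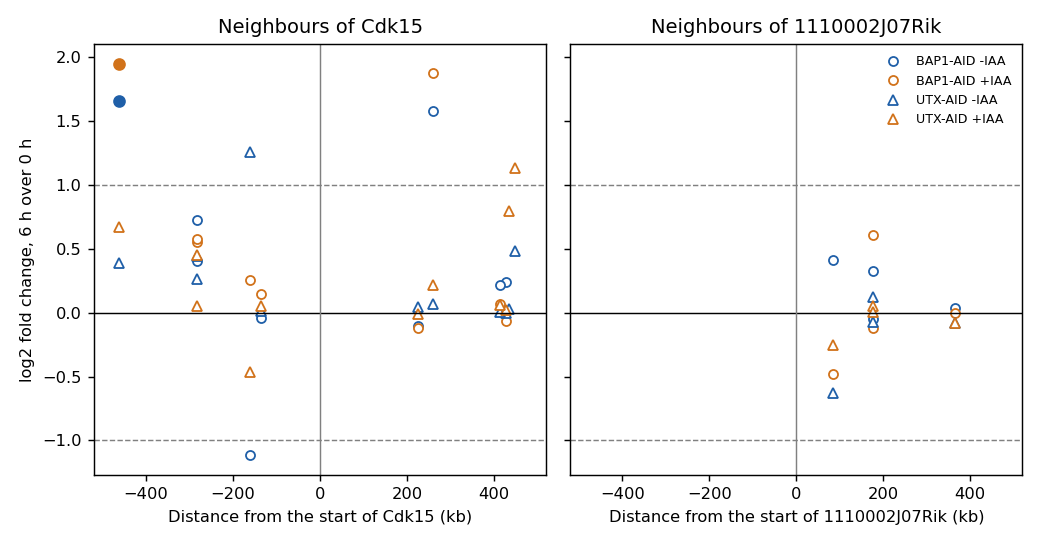
Log2 fold change of 6 h over 0 h of RA (y axis) of tested neighbours by the distance of their start from the start of the gene in kb along the chromosome (x axis), circles for BAP1-AID, triangles for UTX-AID, blue for −IAA, orange for +IAA, and filled symbols for called genes. *Casp8* at the far left of the *Cdk15* panel is the called neighbour, at 1.66 without IAA and 1.95 with IAA in BAP1-AID ESCs.

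The genes whose levels most resembled *Cdk15* over the 24 libraries were *Camk2n1* (Pearson r of log2 CPM 0.959), *Tmtc1*, *Dlgap3*, *Cyp26c1*, and *Hoxb1* (0.951), among 12330 genes. *Camk2n1* encodes an inhibitor of the calcium/calmodulin kinase CaMKII and *Dlgap3* a postsynaptic scaffold protein. *1110002J07Rik* came at place 93 (r = 0.882), with 0.974 within BAP1-AID and 0.958 within UTX-AID ESCs. The 24 points share the RA times and the lines, so these values describe likeness of time course and carry no p-value.

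The genes most like *1110002J07Rik* were *Tmem191c* (r = 0.970), *Sema4g*, *Mreg*, *Itpk1*, and *Slc15a1* (0.955). *Sema4g* encodes a semaphorin, *Itpk1* an inositol phosphate kinase, and *Slc15a1* a peptide transporter. *Cdk15* came at place 81 for it, *Hoxb1* at 108, and *Cyp26a1* at 277. With Spearman's rho in place of Pearson's r, 1 of the 5 genes most like *Cdk15* (*Dlgap3*) and 2 of the 5 most like *1110002J07Rik* (*Sema4g* and *Tmem191c*) were again among the first 5.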

How the data were processed

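PolyA RNA-seq libraries of mouse ESCs were analysed from the deposited table of estimated counts per gene, which the authors made with HISAT2 2.2.1, SAMtools 1.19 and StringTie 2.2.1 on mm39, without normalization, and tested with DESeq2. All values were whole numbers, so none was rounded. They derive from coverage, so a count is not a single read. The gene annotation, strandedness and vehicle of −IAA cells are not given in the sources used here. The 2 members and all lists were chosen with earlier results of these data known.

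Counts were tested in R 4.3.3 with edgeR 4.0.16 (glmQLFit, glmQLFTest, TMM factors, filterByExpr with min.count 10 and min.total.count 15, Benjamini-Hochberg adjustment over all genes of a fit). The 12 libraries of a line were fitted together, testing 15695 genes for BAP1-AID, 16268 for UTX-AID, and all 24 (16816 genes) for differences between lines. Both members passed the filter, *Cdk15* through its RA libraries. CPM were TMM-scaled, and levels per kb used the union of annotated exons. Alternatives were DESeq2 1.42.0, RLE size factors, no filter, a replicate block, a GC and length correction, 1 fit of all libraries, and each library left out. The named genes were the members, TAIRE kinases with activators, other cyclin-dependent kinases, tested neighbours within 500 kb, the 5 genes with the highest correlation with each member (log2 CPM, prior count 2, mean above 1 CPM), and reference RA targets. Some of these genes are not reported or plotted here. Of 26264 genes, 23897 (91.0%) matched a symbol of GENCODE vM39, which gave coordinates. The fits were tested on simulated data. Python 3.11.15 (matplotlib 3.10.9, numpy 2.4.6, pandas 2.3.3) drew the plots.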

Additional observations from a re-analysis of the deposited data

Results flagged for a closer look

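Results stand here because both +IAA libraries lay on one side of both −IAA libraries in one line and on the opposite side in the other. With 2 libraries in each arm, such a separation can arise without an effect of IAA. The share of all genes that show it is not given here. For *1110002J07Rik* at 3 h of RA, both +IAA libraries were above both −IAA libraries in BAP1-AID ESCs and below them in UTX-AID ESCs. The IAA effect in UTX-AID minus that in BAP1-AID was -0.92 on the log2 scale (adjusted p = 0.0269 by edgeR's quasi-likelihood test over 16816 genes). This comparison was chosen after the values were seen, and the difference was below the fold criterion. The adjusted p-value was 0.142 without the second UTX-AID +IAA library of that time and above 0.05 when any one of 5 other libraries of that time was left out.

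For *Cdk15* at 6 h, both +IAA libraries were below both −IAA libraries in BAP1-AID ESCs and above them in UTX-AID ESCs, and the difference of the effects was 1.77 (adjusted p = 0.316 by the same test). It rests on counts of 23 to 107 per library. Their causes were not tested.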

How the results depend on the processing

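Leaving out single libraries turned the sign of 3 small differences: the IAA effect on *1110002J07Rik* at 0 h in BAP1-AID ESCs (range -0.37 to 0.066), the IAA effect on *Cdk15* at 3 h there (-0.69 to 1.01), and the altered RA response of *1110002J07Rik* at 6 h there (-0.42 to 0.016). The difference between the lines in *1110002J07Rik* at 0 h ranged from 0.77 to 1.24 when single libraries were left out and was 0.94 with the GC and length correction, with or without the replicate block. The difference of the IAA effects on *1110002J07Rik* at 3 h ranged from -1.20 to -0.70. The RA response of *1110002J07Rik* at 6 h in BAP1-AID +IAA ESCs was 2.73 with the GC and length correction, with or without the block, and 2.75 to 2.80 with single libraries left out, against 2.79. The count of called TAIRE kinases and activators in UTX-AID −IAA ESCs was 0 to 1 with single libraries left out. The count of called *Cdk15* neighbours in BAP1-AID ESCs was 0 to 1 without IAA and 1 to 2 with IAA when single libraries were left out, 2 in both arms with all 24 libraries in 1 fit, and 2 with IAA by DESeq2. The added gene was *Gm973* in each of these settings, with log2 fold changes of 1.55 to 2.94. Over all genes, the counts called for IAA in BAP1-AID ESCs (180, 140 and 252 at 0, 3 and 6 h) were 107, 81 and 97 with the GC and length correction and 60 to 253 at 3 h with single libraries left out. In UTX-AID ESCs (3, 7 and 2) they were 15, 11 and 2 by DESeq2. The counts of genes whose RA response differed between the lines (14 and 38 at 3 and 6 h) were 43 and 90 by DESeq2. Libraries of different groups share replicate numbers, and their deviations did not go together (r of -0.04 to 0.07 over 15 pairs of groups in each line). This check cannot decide whether the numbers mark a shared culture or batch. With the replicate block, the difference between the lines in *1110002J07Rik* at 0 h was 1.01, and the genes called for IAA in UTX-AID ESCs were 12, 15 and 6. The block changed no call of either member unless it was combined with the GC and length correction. Counts of *Cdk15* after RA were 15 to 107, and libraries of 1 group also differed, with counts of 15 and 49 in BAP1-AID +IAA ESCs at 3 h.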
